A study of Mus musculus with 4 samples.

Results

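The secreted inhibitors of Wnt signalling were followed in 4 single-cell RNA-seq libraries of tibial muscle from *Nse-Bmp4* mice, a strain that forms heterotopic ossification (bone in soft tissue) after muscle injury. The 10 members were taken by gene symbol, with no threshold on a measured value, from the 32285 genes in the libraries: *Sfrp1*, *Sfrp2*, *Sfrp4*, *Sfrp5*, *Frzb*, *Dkk1*, *Dkk2*, *Dkk3*, *Wif1* and *Notum*. All animals were C57BL/6 mice of 6 to 8 weeks carrying a *Bmp4* cDNA under the rat neuron-specific enolase promoter. That promoter is active in neurons, and the study also reports that BMP4 from skeletal muscle could regulate ossification in these mice. A library without the transgene was not part of the comparison. The groups were Uninjured muscle and muscle taken 1, 3 or 7 days after an injury (dpi) with cardiotoxin, a snake-venom toxin that kills muscle fibres. Each group was 1 library made from 3 pooled tibial muscles. Every difference between times is therefore also a difference between libraries, and the 2 cannot be told apart. No test between times was possible, and all intervals are 95% intervals for counting error only.

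The libraries held 12031, 11722, 15160 and 23752 cells (Uninjured, 1, 3 and 7 dpi) with 91146335 to 129007669 unique molecular identifiers (UMIs, each standing for 1 captured transcript), and 52853 of 62665 cells were kept. Median depth went down from 8638 UMIs per kept cell in the Uninjured library to 3049 at 7 dpi. Cells were sorted into classes by fixed marker genes. The mesenchymal cells, which correspond to the MSC lineage (fibroblast-like cells marked by *Prrx1*, *Pdgfra* and *Col1a1*), numbered 8459, 3832, 6494 and 16156. All 9 mesenchymal markers were detected in them in every library, with a summed level of 28898, 19880, 16223 and 20369.6 counts in each 1000000 UMIs (CPM). These markers also defined the class, so their detection was set in advance. The 7 dpi number includes 3702 cells with at least 6 of 8 cartilage markers, and no such cell was found in the other libraries. Between 30 and 95 cell barcodes were shared by any pair of libraries.

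Wnt proteins are secreted lipid-modified ligands that bind a Frizzled receptor, and in the beta-catenin pathway also the co-receptor Lrp5 or Lrp6. The inhibitors act outside the cell at several steps. Secreted Frizzled-related proteins (the Sfrp family and Frzb, also called Sfrp3) carry a cysteine-rich domain like that of Frizzled and bind Wnts, Wif1 binds Wnts through a different domain, Dkk1 and Dkk2 bind the Lrp co-receptors, and Notum is an enzyme that removes the lipid from the Wnt itself. Dkk3 shares the Dickkopf fold but is not a typical Lrp antagonist. In limb and skeleton these genes are known from connective tissue, tendon, joint and growth-plate cartilage, where Wnt signalling regulates whether progenitors become cartilage or bone.

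The positions of the members are given on GRCm38 (GENCODE M21). *Sfrp1* (ENSMUSG00000031548) is at chr8:23411502-23449632, *Sfrp2* (ENSMUSG00000027996) at chr3:83766321-83774316 and *Sfrp4* (ENSMUSG00000021319) at chr13:19623104-19632994, all on the plus strand. *Sfrp5* (ENSMUSG00000018822) is at chr19:42197971-42202252, *Frzb* (ENSMUSG00000027004) at chr2:80411970-80447625 and *Dkk1* (ENSMUSG00000024868) at chr19:30545863-30549665, all on the minus strand. *Dkk2* (ENSMUSG00000028031) is at chr3:132085292-132180304 and *Wif1* (ENSMUSG00000020218) at chr10:121033960-121100650 on the plus strand, with *Dkk3* (ENSMUSG00000030772) at chr7:112116017-112159057 and *Notum* (ENSMUSG00000042988) at chr11:120653788-120661175 on the minus strand.

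Promoter sequences from RefSeq (GRCm38.p6) matched 6 of the 10 members. For 3 of these the RefSeq start equals the GENCODE start, and these 3 genes mark 3 different patterns below. The patterns are *Sfrp2* in fibroblasts with a return at 7 dpi, *Sfrp5* in nerve, and *Dkk2* in mesenchymal cells, lower at each later time. Shown for these genes are the 250 bases before the transcription start. They run 5′ to 3′ on the gene's strand, at chr3:83766071-83766320 (plus) for *Sfrp2*, chr19:42202253-42202502 (minus) for *Sfrp5* and chr3:132085042-132085291 (plus) for *Dkk2*, and capitals mark matches to a searched motif.
Sfrp2: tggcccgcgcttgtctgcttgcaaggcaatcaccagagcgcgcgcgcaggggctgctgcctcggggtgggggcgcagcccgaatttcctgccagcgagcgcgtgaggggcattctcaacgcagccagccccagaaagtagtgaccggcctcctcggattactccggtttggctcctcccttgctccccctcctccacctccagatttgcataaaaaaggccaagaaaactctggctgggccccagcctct
Sfrp5: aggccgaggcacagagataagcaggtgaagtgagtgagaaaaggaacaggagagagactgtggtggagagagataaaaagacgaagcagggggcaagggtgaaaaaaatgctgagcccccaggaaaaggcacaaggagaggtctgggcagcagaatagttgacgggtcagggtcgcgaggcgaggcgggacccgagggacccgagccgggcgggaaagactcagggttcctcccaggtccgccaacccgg
Dkk2: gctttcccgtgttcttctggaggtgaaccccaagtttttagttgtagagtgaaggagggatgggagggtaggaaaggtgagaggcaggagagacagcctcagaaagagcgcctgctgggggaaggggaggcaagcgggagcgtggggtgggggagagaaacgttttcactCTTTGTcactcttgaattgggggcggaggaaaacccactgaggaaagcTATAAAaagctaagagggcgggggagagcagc
The 5 motifs were searched on both strands. The TATA box TATAAA was in 12.4% of 32851 mouse promoters of the same length, the SOX motif ACAAAG (whose reverse complement CTTTGT shares its core with the TCF/LEF motif) in 16.5%, the AP-1 motif TGANTCA in 6.75%, the E-box CATCTG in 14.4% and the BMP SMAD motif GGCGCC in 9.59%. The *Dkk2* window held TATAAA starting 32 bases before the start and CTTTGT starting 80 bases before it, while the *Sfrp2* and *Sfrp5* windows held none of these letters.

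Across all mesenchymal cells the inhibitors made up 1036 CPM in the Uninjured library, 471 CPM at 1 dpi, 835 CPM at 3 dpi and 1084 CPM at 7 dpi. The summed level was thus lowest 1 day after injury, and at 7 dpi it was close to the Uninjured level. Its makeup was not the same at both ends. A cell held at least 1 UMI of any member in 76.3%, 65.7%, 70.9% and 81.8% of mesenchymal cells, and in 36.7%, 25.6%, 38.1% and 53.8% once cells were thinned to 1000 UMIs to remove the unequal depth. Cells with fewer than 1000 UMIs were left out of the thinned shares, which removed 0, 10, 266 and 1025 mesenchymal cells. *Sfrp2* gave 46.3%, 28.3%, 35.8% and 52.3% of the members' UMIs in the 4 libraries.

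**Figure D1:**
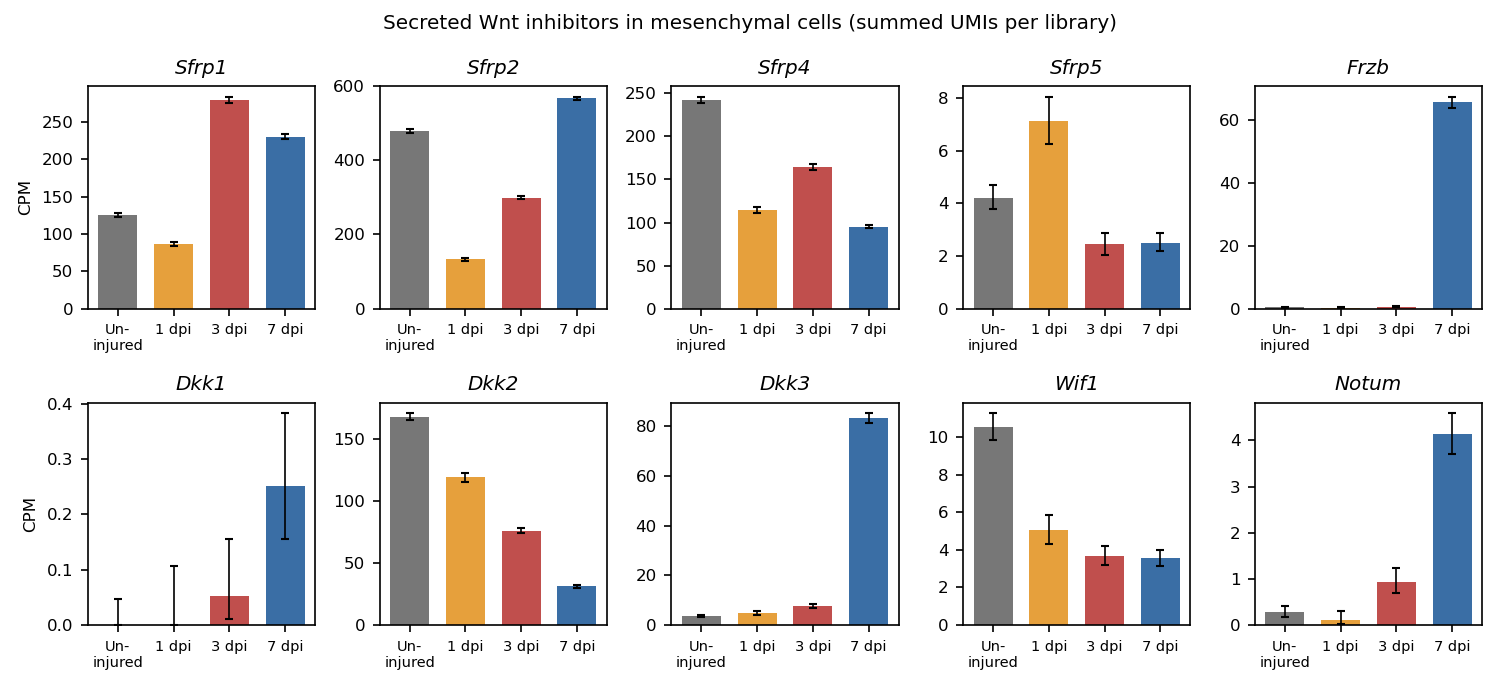
Level of each member in all mesenchymal cells (y axis, CPM from summed UMIs) in the 4 libraries (x axis), with bars for the level and lines for the 95% counting interval. *Sfrp2* dips from 480 to 133 CPM at 1 dpi and stands at 567 CPM at 7 dpi, *Dkk2* is lower at each later time (168 to 31.4 CPM), and *Frzb* and *Dkk3* stand at 65.8 and 83.4 CPM at 7 dpi after single-digit levels before.

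Among the Frizzled-related members, *Sfrp2* had the deepest low point at 1 dpi. Its level in mesenchymal cells was 480 CPM (475 to 485) in the Uninjured library, 133 (129 to 137) at 1 dpi, 299 (295 to 304) at 3 dpi and 567 (562 to 572) at 7 dpi, so none of the 4 intervals overlapped. It was 3.60-fold lower at 1 dpi than in Uninjured muscle (3.49 to 3.71), 2.25-fold higher at 3 dpi than at 1 dpi (2.17 to 2.32), and 1.90-fold higher at 7 dpi than at 3 dpi. With the study's own gate for the MSC lineage the ratio of 3 dpi to 1 dpi was under 2-fold. Thinned to equal depth, 15.6%, 6.80%, 14.3% and 30.5% of cells held a *Sfrp2* UMI. In NK and T cells, which should not express it and so show the level given by free RNA, *Sfrp2* was at 4.93, 2.31, 7.06 and 21.4 CPM.

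*Sfrp1* stood at 126 CPM (123 to 128) in the Uninjured library, 86.3 (83.2 to 89.5) at 1 dpi, 280 (276 to 284) at 3 dpi and 230 (227 to 234) at 7 dpi. Its high point was at 3 dpi, where it was 3.24-fold above 1 dpi (3.12 to 3.37). *Sfrp4* was at 243 CPM (240 to 246), 115 (111 to 118), 165 (161 to 168) and 95.3 (93.2 to 97.4) at the same times. It was 2.12-fold lower at 1 dpi (2.05 to 2.19) and 2.55-fold lower at 7 dpi (2.48 to 2.62) than in Uninjured muscle, so at 7 dpi the *Sfrp1* and *Sfrp4* levels lay on opposite sides of their Uninjured levels. The 1 dpi *Sfrp4* ratio was under 2-fold when cells were thinned to 1000 UMIs.

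*Frzb*, an inhibitor first found in cartilage, was almost absent from mesenchymal cells until 7 dpi. It was at 0.441 CPM in the Uninjured library (35 UMIs), 0.202 at 1 dpi (7 UMIs), 0.513 at 3 dpi (29 UMIs) and 65.8 (64.1 to 67.5) at 7 dpi (5507 UMIs). The 7 dpi level was 149-fold above Uninjured (107 to 214) and 128-fold above 3 dpi (89.2 to 192). *Sfrp5* had only 334, 246, 138 and 210 UMIs in mesenchymal cells, at 4.21, 7.11, 2.44 and 2.51 CPM, and the nerve-sheath cells described further on held most of them before 7 dpi but not at 7 dpi.

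Among the Dickkopf members, *Dkk2* and *Dkk3* had opposite courses. *Dkk2* was at 168 CPM (166 to 171) in the Uninjured library, 119 (116 to 123) at 1 dpi, 76.2 (74 to 78.5) at 3 dpi and 31.4 (30.3 to 32.7) at 7 dpi, lower at each later time, and its 7 dpi level was 5.35-fold below Uninjured (5.14 to 5.59). *Dkk3* was at 3.46, 4.89, 7.75 and 83.4 CPM (81.4 to 85.4 at 7 dpi), higher at each later time. Its 7 dpi level was 24.1-fold above Uninjured (21.4 to 27.3). The 1 dpi value rests on few cells, since 6 cells of the *Lrrc15* *Tnn* gate described below held 67 of the 169 *Dkk3* UMIs. Of these, 32 lay in 1 cell, and without that cell the 1 dpi level was 3.96 CPM. Before thinning, the share of cells with a *Dkk3* UMI was 2.36% in Uninjured muscle and 1.80% at 1 dpi. The thinned share of cells with a UMI followed both courses, with 12.9%, 9.37%, 8.67% and 3.01% for *Dkk2* and 0.319%, 0.445%, 0.931% and 7.23% for *Dkk3*. The thinned *Dkk3* intervals of the Uninjured library (0.210 to 0.464) and of 1 dpi (0.259 to 0.711) overlapped. *Dkk1* was close to undetected, with 0, 0, 3 and 21 UMIs in mesenchymal cells. Set against the 3 counts that a 0 allows in the Uninjured library, its 7 dpi level was 6.63-fold higher. With the counting error of both libraries, the lower limit of the 7 dpi to Uninjured ratio was 4.93-fold. The *Dkk1* UMIs were too few for this ratio to be called under the rule given below.

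*Wif1* and *Notum* were both rare and moved in opposite directions. *Wif1* was at 10.6 CPM (9.85 to 11.3), 5.06, 3.68 and 3.56, which was 2.09-fold lower at 1 dpi (1.77 to 2.47) and 2.97-fold lower at 7 dpi (2.59 to 3.40) than in Uninjured muscle. At 1 dpi, 109 of the library's 285 *Wif1* UMIs (38.2%) lay in cells that no marker gate assigned, and the 1 dpi ratio was under 2-fold when doublets were left in or cells were thinned. *Notum* had 22, 4, 53 and 346 UMIs, at 0.277, 0.116, 0.937 and 4.13 CPM (3.71 to 4.59), and its 7 dpi level was 14.9-fold above Uninjured (9.68 to 24.1).

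A ratio was called when it passed 2-fold in a gene with at least 50 UMIs over both libraries. At 1 dpi against Uninjured, 7 members could be read, of which 0 were called higher and 3 lower (*Sfrp2*, *Sfrp4*, *Wif1*), where 7.81% of all 13899 genes were called higher and 4.32% lower (12.1% in either direction). At 3 dpi against 1 dpi, 8 members could be read, with 3 higher (*Notum*, *Sfrp1*, *Sfrp2*) and 1 lower (*Sfrp5*), beside 6.39% and 5.48% (together 11.9%) of 13820 genes. At 7 dpi against 3 dpi, 9 could be read, with 3 higher (*Frzb*, *Dkk3*, *Notum*) and 1 lower (*Dkk2*), beside 11.4% and 8.05% (together 19.5%) of 14853 genes. At 7 dpi against Uninjured, 3 of 9 were higher (*Frzb*, *Dkk3*, *Notum*) and 3 were lower (*Dkk2*, *Wif1*, *Sfrp4*), beside 17.8% and 11.3% (together 29.2%) of 14997 genes. The median log2 ratio of the members read was -0.54, 0.59, 0.04 and 0.24 in these comparisons, against 0.16, -0.07, -0.09 and 0.06 over all genes read.

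**Figure D2:**
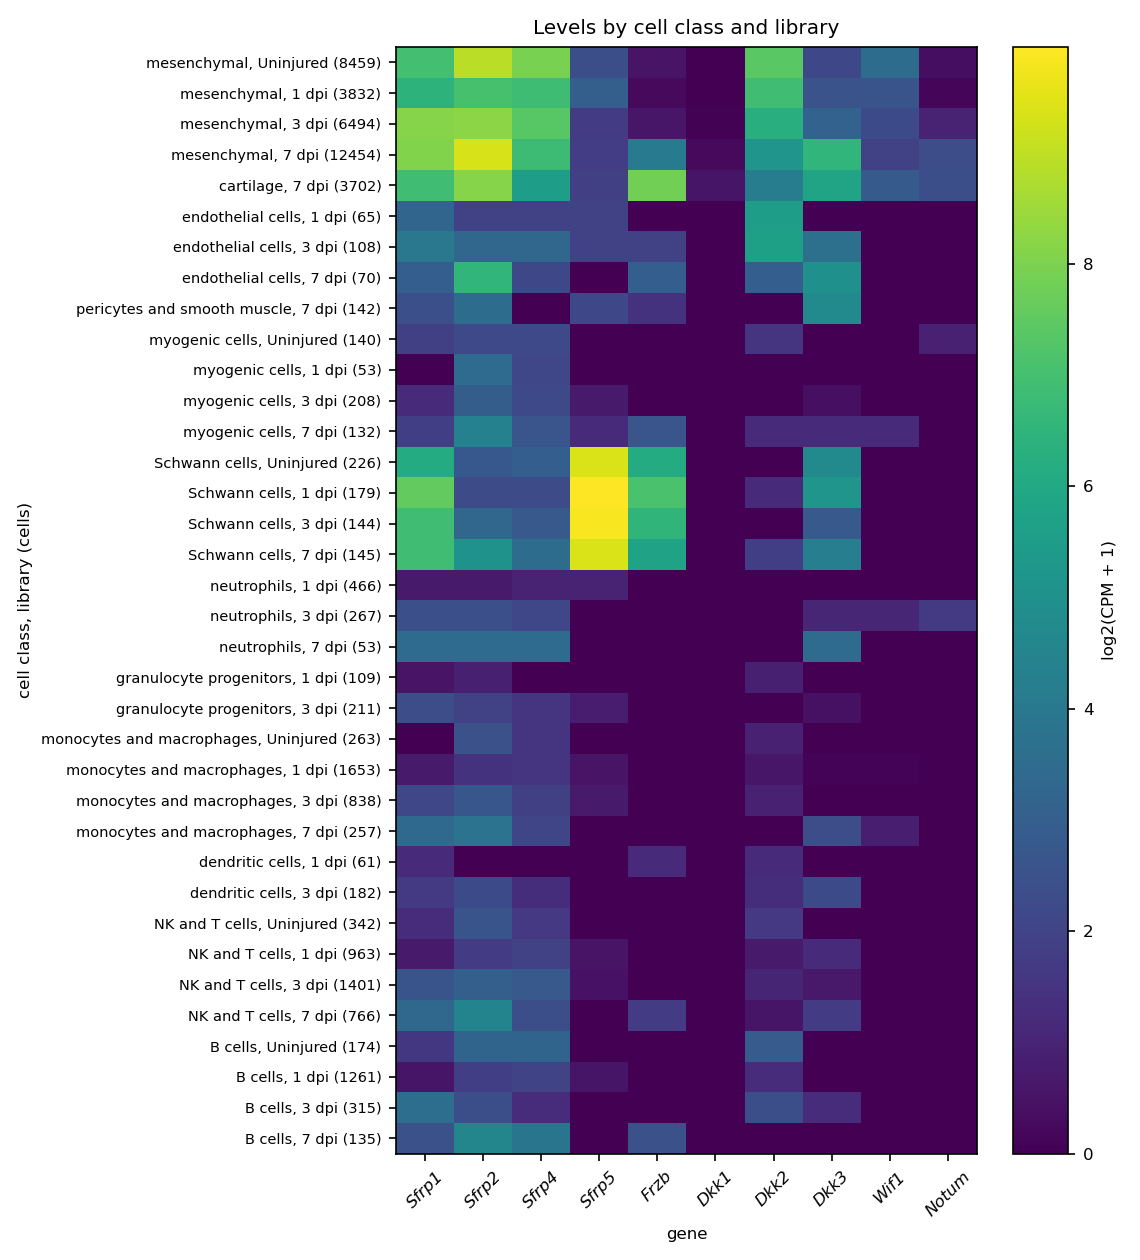
Levels of the 10 members (columns) in each cell class and library with at least 50 cells (rows), coloured by log2(CPM + 1). *Sfrp1*, *Sfrp2*, *Sfrp4* and *Dkk2* are coloured mainly in mesenchymal and cartilage cells, *Sfrp5* in Schwann cells of all 4 libraries, and *Frzb* in Schwann cells and in 7 dpi cartilage.

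Outside the mesenchymal cells, and the Schwann cells described further on, the members were mostly at the free-RNA level. Immune classes held little of any member: in NK and T cells *Sfrp1* was at 1.41, 0.629, 4.98 and 9.04 CPM, *Dkk2* between 0.476 and 2.11 CPM, and *Wif1* and *Notum* at 0 UMIs. The summed mesenchymal markers in those same cells were at 290, 204, 321 and 736 CPM, so the free RNA was most plentiful in the 7 dpi library. Endothelial cells gave *Dkk2* at 45.6 CPM (26.1 to 74.0) at 1 dpi and 49.9 (29.0 to 79.8) at 3 dpi, above the lymphocyte level, and 6.84 CPM at 7 dpi, in 65, 108 and 70 cells. Pericytes and smooth muscle cells at 7 dpi (142 cells) held *Dkk3* at 26.0 CPM (17.5 to 37.1).

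The mesenchymal cells were then divided by markers of known fibroblast types. Adventitial fibroblasts, which surround vessels and are marked by *Pi16* and *Dpp4* (3724, 1344, 1396 and 570 cells), carried *Sfrp2* at 646, 172, 360 and 971 CPM. Interstitial fibroblasts, which lie between fibres and are marked by *Smoc2*, *Col15a1* and *Hsd11b1* (1690, 796, 997 and 287 cells), carried *Sfrp2* at 20.3, 47.1, 124 and 295 CPM. The adventitial level was 31.8-fold the interstitial level in Uninjured muscle and 3.66-fold, 2.90-fold and 3.29-fold at 1, 3 and 7 dpi. At 1 dpi the adventitial level was 3.75-fold lower than in Uninjured muscle (3.60 to 3.91), while the interstitial level was higher at each later time. The interstitial values rest on few cells early on, since 54 of 1690 Uninjured and 21 of 796 1 dpi cells held a *Sfrp2* UMI. A single cell gave 33.8% and 40.7% of those UMIs, and without the top cell of each library the levels were 13.5, 28.0, 111 and 271 CPM. They also depend on the gate, since requiring 1 more marker set the first 3 levels at 4.76, 71.4 and 33.3 CPM. With cells thinned to 1000 UMIs the interstitial levels were 18.9, 37.7, 53.9 and 232 CPM.

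*Sfrp4* was likewise higher in adventitial than in interstitial cells, at 299, 149, 264 and 361 CPM against 24.9, 14.7, 63.3 and 56.6 CPM, which is 12.0-fold, 10.1-fold, 4.17-fold and 6.38-fold. A single cell gave 42.7% of the Uninjured interstitial *Sfrp4* UMIs, and without it that level was 14.3 CPM. *Sfrp1* leaned the other way. It stood at 142, 110, 259 and 265 CPM in interstitial cells and 70.2, 61.1, 165 and 164 CPM in adventitial cells, or 2.02-fold, 1.80-fold, 1.57-fold and 1.62-fold higher in the interstitial cells. *Dkk2* did not separate the types by as much, with adventitial levels of 141, 106, 87.1 and 76.6 CPM and interstitial levels of 149, 117, 128 and 73.7 CPM. The decline of *Dkk2* at 7 dpi was therefore smaller inside these fibroblast types than over all mesenchymal cells.

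Fibroblasts with *C7* and also *Gdf10* or *Mme*, called *C7* *Gdf10* cells, numbered 824, 499 and 464 before 7 dpi. They had higher levels of all 4 of these inhibitors than the adventitial cells. The groups share cells, since 706 of the 1819 *C7* *Gdf10* cells (38.8%) also passed the adventitial gate. *Sfrp2* was at 1329, 453 and 673 CPM in them, *Sfrp4* at 622, 379 and 611 CPM, *Sfrp1* at 293, 195 and 473 CPM and *Dkk2* at 295, 190 and 173 CPM. The ratio to adventitial cells ranged from 1.79-fold (*Dkk2*, 1 dpi) to 4.17-fold (*Sfrp1*, Uninjured). The gate held 9.74% of Uninjured mesenchymal cells, 11.9% of their UMIs of all genes and 32.9% of their *Sfrp2* UMIs, and at 1 dpi it held 13.0% of the cells, 15.3% of all UMIs, 51.9% of the *Sfrp2* UMIs and 50.5% of the *Sfrp4* UMIs. At 7 dpi only 32 cells passed this gate and their levels were not read.

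**Figure D3:**
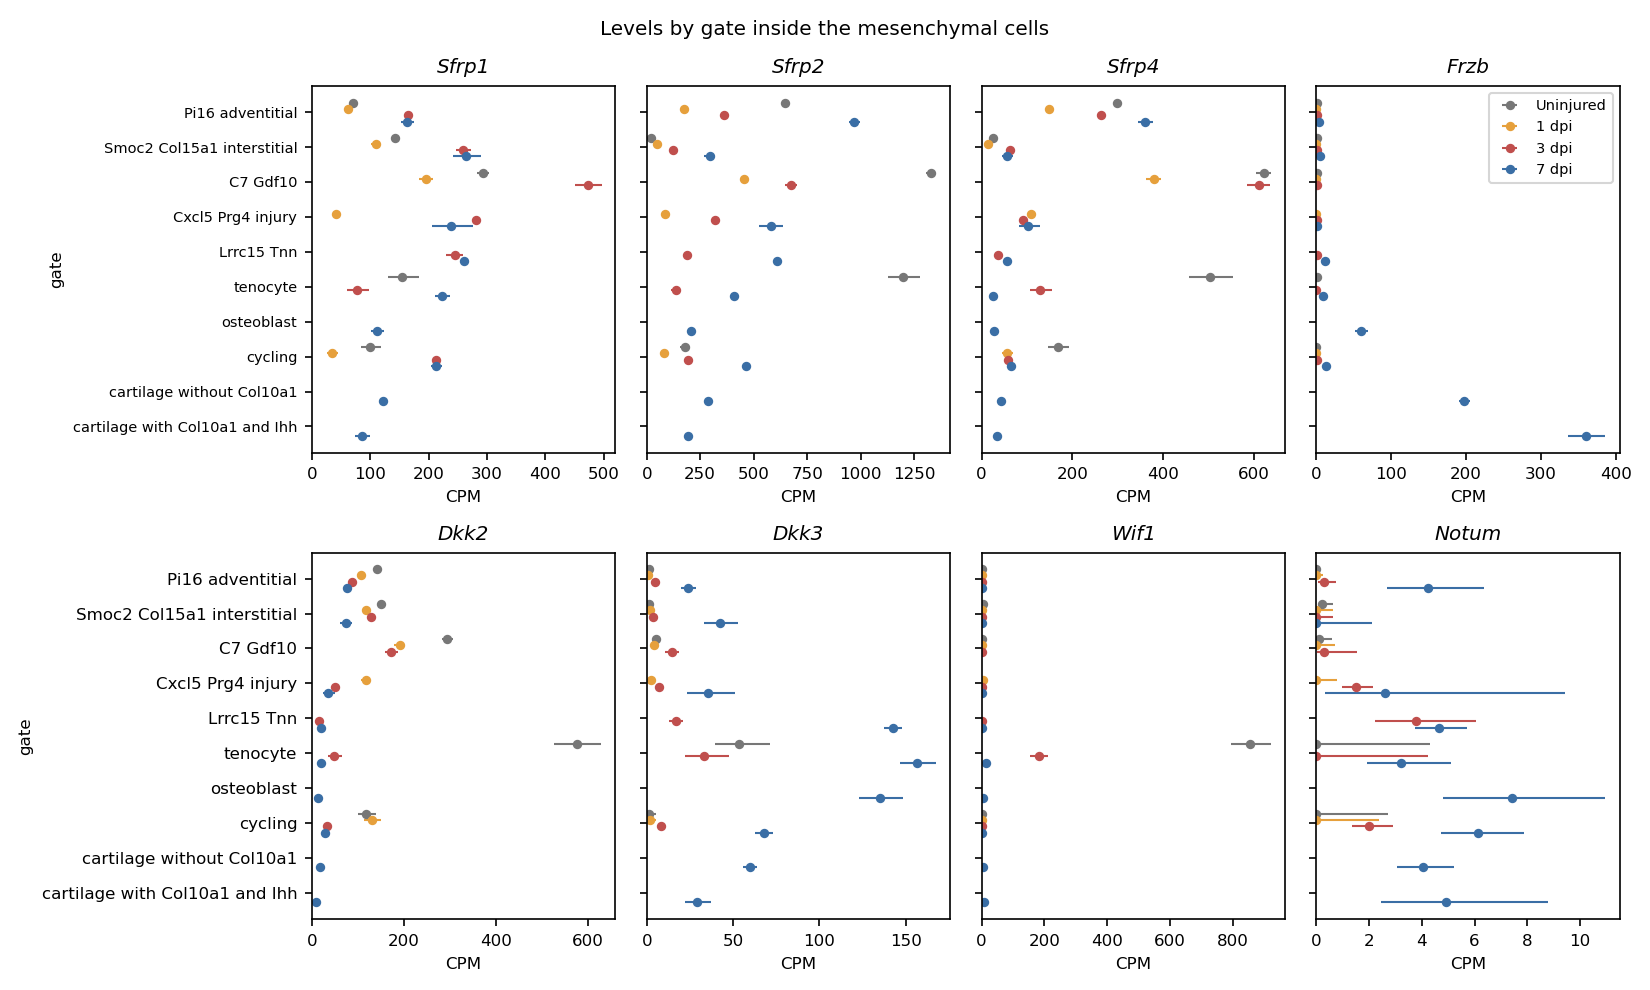
Levels (x axes, CPM) of 8 members in marker-gated groups of mesenchymal cells (y axes) with at least 50 cells, with a point and a 95% counting interval for each library. *Sfrp2* and *Sfrp4* are high in the Pi16 adventitial and C7 Gdf10 cells, *Wif1* in Uninjured tenocytes (856 CPM), *Dkk3* in 7 dpi Lrrc15 Tnn cells (142 CPM) and tenocytes (157 CPM), and *Frzb* in 7 dpi cartilage, without *Col10a1* (197 CPM) and with *Col10a1* and *Ihh* (361 CPM).

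Among cells present after injury, those with both *Cxcl5* and *Prg4* numbered 268, 1126 and 66 at 1, 3 and 7 dpi. They carried *Sfrp1* at 42.1, 281 and 239 CPM, 6.67-fold higher at 3 dpi than at 1 dpi (5.78 to 7.73). *Sfrp2* was at 86.6, 318 and 580 CPM in these cells, and *Dkk2* at 117, 49.4 and 35.2 CPM. Cycling cells, marked by *Mki67* and *Top2a* (84, 81, 706 and 1375 cells), carried *Sfrp1* at 100, 34.7, 213 and 213 CPM, *Sfrp2* at 179, 81.0, 195 and 465 CPM and *Dkk2* at 118, 132, 33.8 and 29.2 CPM. In both gates *Sfrp1* and *Sfrp2* were higher at 3 and 7 dpi than at 1 dpi while *Dkk2* was lower.

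Cells with *Lrrc15* and *Tnn*, genes of activated fibroblasts and developing tendon and bone, numbered 204 at 3 dpi and 2196 at 7 dpi. In them *Dkk3* went from 16.7 to 142 CPM, 8.52-fold higher (6.78 to 10.9), and *Sfrp2* from 188 to 609 CPM, 3.23-fold higher (3.01 to 3.47). They held 39.8% of the 7 dpi *Dkk3* UMIs of all mesenchymal cells, cartilage included, and 23.3% of the UMIs of all genes in those cells. *Dkk3* at 7 dpi was also at 24.1 CPM in adventitial and 42.3 CPM in interstitial cells, above their own Uninjured levels of 1.58 and 1.30 CPM. These gates share cells. Over all libraries, 77 *Lrrc15* *Tnn* cells also passed the adventitial gate and 21 the interstitial gate. The part of the shared cells in these *Dkk3* levels was not tested. It was at 68.0 CPM in cycling and 135 CPM in osteoblast-gated cells, and no Uninjured cell passed the osteoblast gate.

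Tenocytes, the fibroblasts of tendon (*Tnmd*, *Thbs4*, *Mkx*, *Scx*, *Fmod*), held most of the *Wif1* of Uninjured muscle. *Wif1* stood at 856 CPM (795 to 921) in 80 Uninjured tenocytes, at 182 CPM in 76 cells at 3 dpi and at 13.4 CPM in 596 cells at 7 dpi, while the 32 cells at 1 dpi gave 300 CPM. The 7 dpi level was 63.7-fold below Uninjured (50.2 to 82.0). Tenocytes held 734 of the 837 *Wif1* UMIs of Uninjured mesenchymal cells (87.7%) while being 0.946% of the cells. Adventitial cells held 36 *Wif1* UMIs in Uninjured muscle, 35 of them in 1 cell. The share of tenocyte-gated cells with a *Wif1* UMI was 52.5% in the Uninjured library, 47.4% at 3 dpi and 4.36% at 7 dpi. At 7 dpi the gate also takes in *Lrrc15* *Tnn* cells, and without them the level was 29.3 CPM, still below the earlier ones.

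The other members of the tendon cells did not all follow *Wif1*. *Dkk2* in the tenocyte gate was at 575, 49.1 and 20.8 CPM (Uninjured, 3 and 7 dpi), 27.7-fold lower at the end, and *Sfrp4* at 504, 129 and 26.0 CPM, 19.4-fold lower. At 3 dpi a single cell gave 53.5% of the *Dkk2* and 71.7% of the *Sfrp4* UMIs, and without it these levels were 23.3 and 37.2 CPM. *Sfrp2* was at 1200, 135 and 410 CPM, lowest at 3 dpi. *Dkk3* was at 53.7, 33.1 and 157 CPM, highest at 7 dpi. Tenocytes were thus high in *Wif1*, *Dkk2*, *Sfrp4* and *Sfrp2* before injury. Among the 5 genes named here, only *Dkk3* was above its Uninjured level in the cells that pass the same markers at 7 dpi. *Sfrp1* was above its own as well, at 155 CPM in Uninjured muscle and 223 CPM at 7 dpi. Over all libraries, 258 of the 784 tenocyte-gated cells (32.9%) also passed the *Lrrc15* *Tnn* gate. The *Dkk3* and *Sfrp1* levels without them were not read. The Uninjured *Sfrp4* and *Sfrp2* levels rest on 20 and 32 of the 80 cells. A single cell gave 23.1% and 27.5% of those UMIs, and without it the levels were 393 and 887 CPM.

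Cartilage cells were present only at 7 dpi. Marked by *Col2a1*, *Acan* and 6 other cartilage genes, they carried *Frzb* at 229 CPM, against 16.2 CPM in the other mesenchymal cells of the library, a 14.2-fold difference (13.2 to 15.2). They held 74.7% of all *Frzb* UMIs of the 7 dpi library, and the other mesenchymal cells 17.3%. *Frzb* in *Lrrc15* *Tnn* cells was at 12.1 CPM, 18.9-fold below cartilage (16.6 to 21.7), and in osteoblast-gated cells (365 cells, *Sp7*, *Ibsp*, *Alpl*) at 59.7 CPM. At the threshold of the gate, 687 cells had 5 of the cartilage markers and 844 cells had 6. A further 1357 and 890 cells of the 7 dpi library had 3 and 4 of them. Cells below 6 were counted with the other mesenchymal cells, so the 16.2 CPM is not a level of cells free of cartilage markers. The part of such cells in it was not tested.

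*Sfrp1*, *Sfrp2* and *Sfrp4* were lower in cartilage than in the remaining 7 dpi mesenchymal cells, while *Sfrp5* was at 2.66 CPM (1.99 to 3.49) against 2.46 CPM. *Sfrp2* was at 279 against 654 CPM (2.35-fold lower, 2.28 to 2.41), *Sfrp1* at 117 against 265 CPM (2.27-fold lower) and *Sfrp4* at 44.9 against 111 CPM (2.46-fold lower). *Dkk2* was at 17.6 against 35.7 CPM and *Dkk3* at 54.3 against 92.2 CPM, while *Notum* was at 4.30 against 4.08 CPM. *Wif1* was at 5.99 CPM in cartilage and 2.82 CPM in the rest, and 117 of the 298 *Wif1* UMIs of 7 dpi mesenchymal cells were in cartilage. Within cartilage, cells with *Col10a1* and *Ihh*, which mark hypertrophic and pre-hypertrophic chondrocytes (326 cells), had *Frzb* at 361 CPM and cells without *Col10a1* (2667 cells) at 197 CPM, 1.83-fold apart (1.69 to 1.98). *Dkk3* ran the other way, at 29.1 and 59.9 CPM (2.06-fold, 1.60 to 2.70), as did *Sfrp2* at 194 and 288 CPM.

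The 2 rarest members were read mainly at 7 dpi. *Notum* at 7 dpi was at 7.43 CPM (4.81 to 10.96) in osteoblast-gated cells, 6.14 CPM (4.72 to 7.86) in cycling cells and 4.66 CPM (3.75 to 5.72) in *Lrrc15* *Tnn* cells, and these intervals overlap. The gates overlap too, since 33.3% of osteoblast-gated cells also passed the *Lrrc15* *Tnn* gate. Adventitial fibroblasts at 7 dpi were at a like level of 4.23 CPM (2.68 to 6.35), and interstitial fibroblasts held 0 *Notum* UMIs at 3 and 7 dpi. *Lrrc15* *Tnn* cells already held *Notum* at 3.79 CPM (2.21 to 6.06) at 3 dpi, when adventitial fibroblasts were at 0.295 CPM. Cycling cells were then at 2.01 CPM (1.33 to 2.90) and *Cxcl5* *Prg4* cells at 1.49 CPM (0.989 to 2.15). Of the 53 mesenchymal *Notum* UMIs at 3 dpi, 28 were in *Cxcl5* *Prg4* cells, 28 in cycling cells and 17 in *Lrrc15* *Tnn* cells, in gates that overlap. Of the 21 *Dkk1* UMIs at 7 dpi, 9 were in cartilage cells and 12 in other mesenchymal cells, 4 of them in osteoblast-gated cells.

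Peripheral nerve held inhibitors as well, among them *Sfrp5* and *Frzb*. Schwann cells, the glia that wrap axons (226, 179, 144 and 145 cells, with *Sox10* and *Cdh19* among their markers), carried *Sfrp5* at 665 CPM (612 to 721) in Uninjured muscle, 985 (917 to 1058) at 1 dpi, 928 (829 to 1035) at 3 dpi and 669 (589 to 756) at 7 dpi. The level was 1.48-fold above Uninjured at 1 dpi (1.33 to 1.65) and 1.01-fold at 7 dpi (0.865 to 1.17), short of the 2-fold limit throughout. Thinned to equal depth, 41.2%, 55.6%, 60.2% and 47.1% of Schwann cells held a *Sfrp5* UMI, against a level of 0 to 0.419 CPM in NK and T cells. Schwann cells held 60.4%, 71.1%, 59.8% and 51.5% of all *Sfrp5* UMIs of their libraries.

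*Frzb* was at 68.7, 134, 89.6 and 52.2 CPM in Schwann cells, 1.95-fold above Uninjured at 1 dpi (1.40 to 2.72), and before 7 dpi they held 60.6%, 88.8% and 48.4% of the *Frzb* UMIs. *Sfrp1* was at 68.7, 188, 118 and 118 CPM there, 2.74-fold above Uninjured at 1 dpi (2.02 to 3.77), in 13.3% to 16.2% of cells. *Dkk3* was at 26.3 (16.7 to 39.5), 35.1 (23.1 to 51.0), 5.78 and 18.3 CPM in Schwann cells. All mesenchymal cells stood at 3.46, 4.89, 7.75 and 83.4 CPM. The Schwann values rest on 23, 27, 2 and 7 *Dkk3* UMIs, and without the top cell the 1 dpi level was 24.0 CPM. *Wif1* and *Notum* had 0 UMIs in Schwann cells.

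Most of the *Sfrp5* counted in mesenchymal cells before 7 dpi came from a group of 48 cells with at least 3 of 5 markers of perineurial cells, the fibroblast-like sheath around nerve bundles (*Slc2a1*, *Cldn1*, *Itgb4*, *Lypd2*, *Tenm2*). The 12, 15, 16 and 5 cells of the 4 libraries carried *Sfrp5* at 3361, 3431, 1660 and 1052 CPM, and at 2771 CPM (2563 to 2992) over all libraries, with a UMI in 41 of 48 cells. In Uninjured muscle they held 307 of 334 mesenchymal *Sfrp5* UMIs (91.9%), and 91.5%, 76.8% and 7.62% at 1, 3 and 7 dpi. At 7 dpi that was 16 of 210 UMIs. A single cell in each library gave 30.3%, 33.3% and 33.0% of the gate's *Sfrp5* UMIs in Uninjured muscle and at 1 and 3 dpi. Without that cell the levels were 2607, 2473 and 1186 CPM. The called *Sfrp5* ratio of 3 dpi to 1 dpi in mesenchymal cells (2.91-fold lower, 2.36 to 3.61) rests on 16 and 15 cells, and it was no longer past 2-fold once cells were thinned to 1000 UMIs. *Frzb* had 0 UMIs in the gate, which allows a level of up to 12.7 CPM, below the Schwann levels. *Sox10* was at 0 UMIs in the gate. Perineurial markers summed to 3869 CPM in it against 144 to 292 CPM in Schwann cells. The gate requires these markers, so its high sum was set in advance and does not tell the cell types apart. It also takes only mesenchymal cells, which hold more mesenchymal or cartilage markers than Schwann markers. Low Schwann markers, *Sox10* among them, were thus largely set in advance too. Leaving out cells with 2 or more Schwann markers kept 46 cells at 2865 CPM, which does not tell the types apart either. Among Schwann cells, 296 held 1 or more perineurial markers, with *Sfrp5* at 796 CPM (747 to 848). The 398 with none were at 820 CPM (769 to 874).

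**Figure D4:**
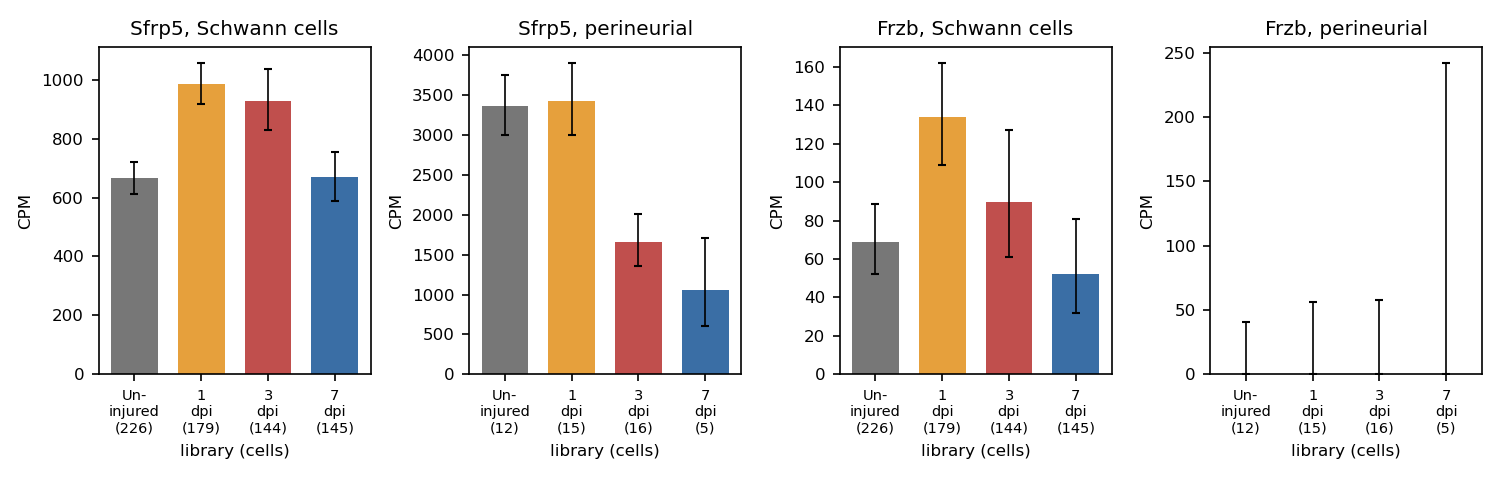
Levels (y axis, CPM) of *Sfrp5* and *Frzb* in Schwann cells and in perineurial-gated cells by library (x axis, number of cells in parentheses), with 95% counting intervals. *Sfrp5* is present in both cell types at every time, with perineurial levels of 1052 to 3431 CPM, and *Frzb* is present in Schwann cells (52.2 to 134 CPM) and at 0 UMIs in perineurial cells.

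The genes whose levels ran most like a member's were read over 36 class and library units. These are descriptions over units that share libraries, picked from 13238 genes. The units are whole cell classes, not the gates inside the mesenchymal cells, so the values do not separate fibroblast types. *Sfrp5* ran with *Col28a1*, *Rxrg* and *Adcy1* (Pearson's r of log2 CPM 0.97 for each), which are genes of Schwann cells or neurons. *Frzb* ran with *S100b* (0.91), which both glia and chondrocytes use. *Sfrp4* ran with *Mfap5* (0.92) and *Smoc2* (0.89), *Sfrp2* with the collagen *Col3a1* (0.92), *Dkk3* with *Col16a1* (0.85), *Col12a1* (0.83) and *Postn* (0.83), and *Dkk2* with *Ism1* (0.91). *Smoc2* also marks the interstitial gate, where *Sfrp4* was lower than in adventitial cells in every library.

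Ligands, receptors, response genes and other modulators of the Wnt pathway were read in the same cells from 5 fixed lists of 67 genes. At 1 dpi against Uninjured (7.81% of all genes higher, 4.32% lower), 0 of 9 ligands read were higher and 3 lower (*Wnt1*, *Wnt2*, *Wnt11*), and 1 of 15 receptors was lower (*Fzd10*). Of the R-spondin axis, 1 of 5 was lower (*Rspo1*). This list holds the R-spondins, which keep Frizzleds at the surface, their Lgr receptors, and the ubiquitin ligases *Znrf3* and *Rnf43*. It therefore does not stand for a single direction of signalling. Of 7 response genes 1 was higher (*Tnfrsf19*) and 1 lower (*Nkd1*), and of 7 other extracellular modulators 1 was lower, the carboxypeptidase *Cpz*, from 51.1 to 2.89 CPM (17.7-fold, 14.5 to 21.8). At 3 dpi against 1 dpi (6.39% of all genes higher, 5.48% lower) the genes past 2-fold were *Wnt16* higher and *Wnt5a* lower of 9 ligands, *Fzd6* higher of 15 receptors, *Rspo2* higher of 6, *Axin2* and *Nkd2* higher of 8 response genes, and *Cthrc1*, *Draxin* and *Trabd2b* higher of 7 modulators. *Cthrc1*, a secreted matrix protein of activated fibroblasts, went from 21.7 to 295 CPM (13.6-fold).

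At 7 dpi against 3 dpi, where 11.4% of all genes were called higher and 8.05% lower, more genes of the lists passed 2-fold. Higher were 4 of 11 ligands and 0 lower, led by *Wnt16* (8.17-fold) and *Wnt5b* (4.85-fold). Of 17 receptors 3 were higher, led by *Fzd9* (35.2-fold), *Lrp4* (4.47-fold) and *Fzd6* (3.24-fold), and 2 lower, *Fzd4* (2.91-fold) and *Ror1* (2.36-fold). Of the R-spondin axis, 4 of 8 were higher, among them the ubiquitin ligase *Rnf43* (3.55-fold) and the receptor *Lgr4* (3.07-fold). Of the response genes, 5 of 9 were higher, led by the transcription factors *Lef1* (11.5-fold) and *Tcf7* (6.32-fold), and *Ccnd1* was 2.08-fold lower. Of the other modulators, 4 of 8 were higher, led by the Lrp-binding inhibitor *Sostdc1* (14.2-fold) and by *Cpz* (10.7-fold). The *Sostdc1* ratio rests on only 3 UMIs at 3 dpi and 63 at 7 dpi.

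At 7 dpi against Uninjured (17.8% of all genes higher, 11.3% lower), 3 of 10 ligands were higher, led by *Wnt16* (22.6-fold), and 4 lower, led by *Wnt11* (6.52-fold lower) and *Wnt1* (3.81-fold lower). Receptors were higher in 6 of 17, led by *Fzd9* (35.7-fold) and *Fzd6* (14.1-fold), with 1 lower (*Fzd4*, 2.02-fold). The R-spondin axis had 3 of 6 higher, led by *Rspo2* (5.32-fold), and the response genes had 4 of 9 higher, led by *Tcf7* (33.8-fold) and *Lef1* (14.2-fold). The other modulators had 5 of 8 higher, led by *Cthrc1* (52.0-fold) and *Trabd2b* (8.21-fold). The list medians (log2 ratio) in this comparison were -0.19 for ligands, 0.63 for receptors, 1.03 for the R-spondin axis, 0.86 for response genes and 1.07 for the other modulators, beside 0.06 over all genes read.

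**Figure D5:**
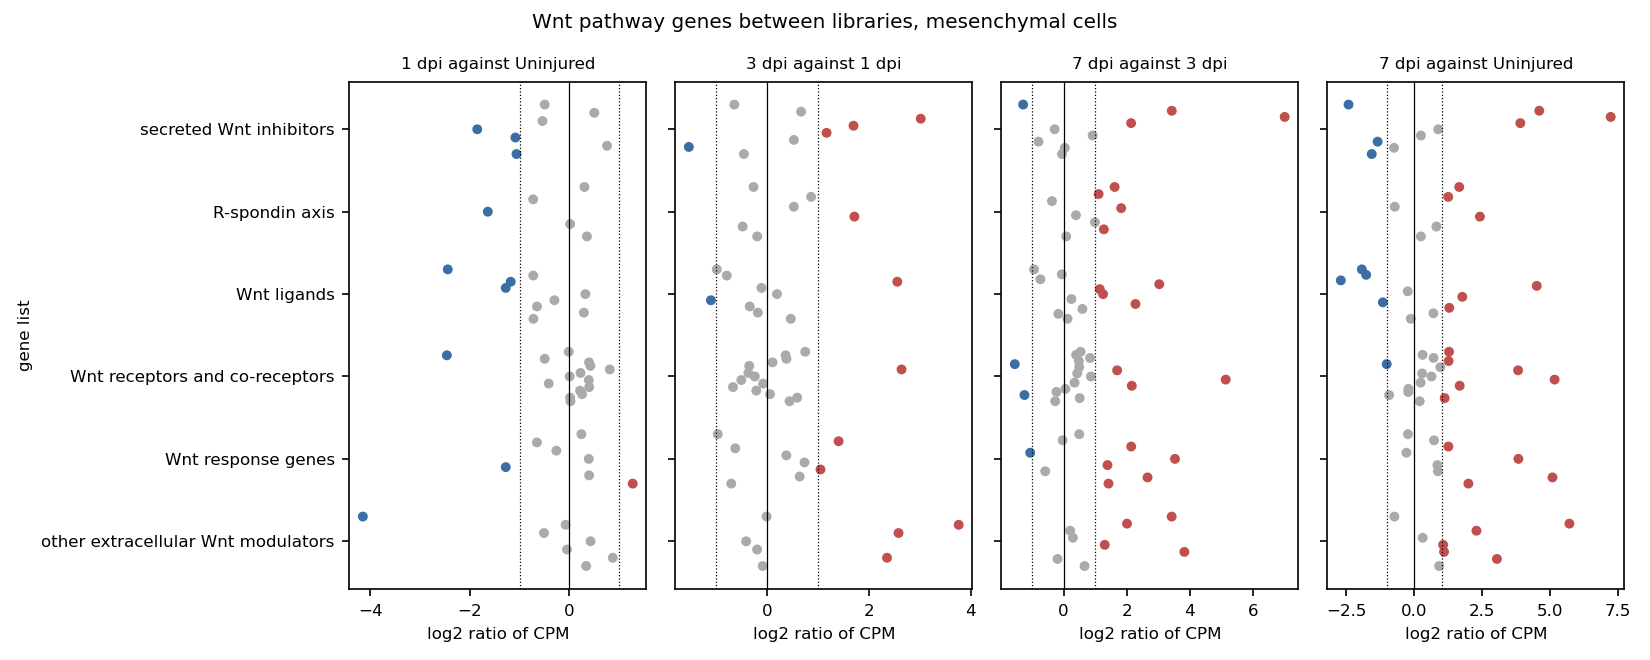
Log2 ratio of CPM (x axes) of each gene read among the inhibitors and in the 5 Wnt pathway lists (y axis) for 4 comparisons of libraries (panels), with red points at least 2-fold higher, blue points at least 2-fold lower, grey points neither, and dotted lines at -1 and 1. Red points are most frequent in the 2 panels with 7 dpi.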

How the data were processed

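Tibial muscle was digested with collagenase and single cells were profiled on the 10x platform, with 3 muscles pooled in each of the 4 libraries. Per the labels, the authors made the deposited count matrices (whole-number UMI counts per gene and cell, not normalized) with Cell Ranger 5.0.0 and its STAR aligner, and the submitters' processing notes name Seurat 3.1.1 and mm10. A down-sampling of reads to normalize across samples is also described, and whether it came before the deposited counts is not given in the sources used here, so total UMIs may not show the sequenced depth. The libraries held 91146335 to 129007669 UMIs.

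Cells were kept within 2 SD of the library's mean log10 UMIs and genes, with at most 10% mitochondrial UMIs, after removing the top 7.5% of Scrublet doublet scores (scanpy 1.11.5), which left 52853 of 62665 cells. No deposited annotation of cells was used. A cell took the class with strictly the most detected markers, at least 3, and mesenchymal cells were allowed at most 1 of the pan-immune markers. Groups within the mesenchymal cells came from marker counts in the same way and can overlap. The gate thresholds were set after seeing the cells. The members and all lists were chosen with earlier results of these data known. Cells left unassigned (6314) entered no class. Some of the markers used for the Schwann class are not reported here.

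UMIs were summed per library and class and expressed as CPM, with exact Poisson intervals for levels, Clopper-Pearson intervals for shares of cells and conditional binomial intervals for ratios (95%, scipy 1.17.1). A level of 0 was given the upper limit that 3 counts allow. CPM does not correct for transcript length, so levels were compared within a gene. With 1 library per time no p-value was computed, and a ratio was called past 2-fold with at least 50 UMIs over both libraries. All 10 members, and up to 4 genes of each pathway list per comparison by the size of the ratio, are named. The script was tested on simulated data. Positions are from GENCODE M21 (32158 of 32285 gene IDs matched, 99.6%), and promoters from RefSeq. Doublets left in, filters on linear counts, 1 more marker per gate, the study's gate, cartilage left out, thinning to 1000 UMIs, median-of-ratios size factors, no count filter and a 1.5-fold limit were tried as alternatives.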

Additional observations from a re-analysis of the deposited data

Results flagged for a closer look

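In all, 7 contrasts were picked out because the same member moved past 2-fold in opposite directions in different cell groups between the same libraries, also without the cells that gave most UMIs. With 1 library per time the difference between the groups was not tested. *Sfrp1* at 1 dpi was 2.74-fold higher than in Uninjured muscle in Schwann cells (2.02 to 3.77) and 2.88-fold lower in cycling mesenchymal cells (2.09 to 4.03). *Sfrp2* at 1 dpi was 2.32-fold higher in interstitial fibroblasts (1.96 to 2.75), or 2.08-fold without the top cells, while it was 3.75-fold lower in adventitial fibroblasts (3.60 to 3.91) and 2.93-fold lower in *C7* *Gdf10* fibroblasts (2.81 to 3.06). At 7 dpi *Sfrp2* was 14.5-fold higher than in Uninjured muscle in interstitial fibroblasts (12.5 to 16.8) and 2.60-fold higher in cycling cells (2.29 to 2.97). In tenocytes *Sfrp2* was 2.93-fold lower (2.72 to 3.15), or 2.23-fold without the top cells. *Sfrp4* at 7 dpi was 2.27-fold higher in interstitial fibroblasts (1.80 to 2.85), 19.4-fold lower in tenocytes (16.0 to 23.6) and 2.58-fold lower in cycling cells (2.21 to 3.00). The interstitial and cycling groups were small in some libraries, and the gates overlap. Median depth per cell also differed between these libraries. With adventitial and interstitial cells thinned to 1000 UMIs, *Sfrp2* at 1 dpi was 2.77-fold lower than in Uninjured muscle in adventitial cells and 1.99-fold higher in interstitial cells, and at 7 dpi interstitial *Sfrp2* was 12.2-fold and *Sfrp4* 2.45-fold higher. The other groups named here were not thinned, and the part of depth in them was not tested.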

How the results depend on the processing

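Of 17 member ratios called in mesenchymal cells, no direction was reversed under any alternative. All 17 stayed called with 1 more marker, size factors, no count filter or cartilage left out, 16 with doublets left in, 14 of 16 under linear filters, 15 of 16 under the study's gate and 13 of 16 when thinned. The lost calls were *Wif1* and *Sfrp4* at 1 dpi, *Sfrp2* at 3 against 1 dpi and *Sfrp5* at 3 against 1 dpi. Leaving out cartilage added *Sfrp2* (7 against 3 dpi) and *Sfrp1* (7 dpi against Uninjured), thinning added *Sfrp5* (7 dpi against Uninjured), and the 1.5-fold limit added 7. No paired analysis was possible because each time point was 1 library and no result came from a test. No replicate could be left out for the same reason. Depth limits *Dkk1*, *Notum* and groups under 100 cells most. The causes of the moves given next were not tested.

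With doublets left in, the summed members were at 1010 CPM (Uninjured) and 821 CPM (3 dpi), 2 pathway genes were higher at 1 dpi, adventitial *Sfrp2* was at 614 CPM (Uninjured), tenocyte *Wif1* at 795 CPM (Uninjured) and perineurial *Sfrp5* at 2222 CPM. With linear filters, the summed members were at 1023, 492, 904 and 1118 CPM, 1 member was lower at 1 dpi, 2 pathway genes were lower at 3 against 1 dpi, adventitial *Sfrp2* was at 190, 378 and 1027 CPM (1, 3, 7 dpi), interstitial *Sfrp2* at 84.2 and 264 CPM (3, 7 dpi) and tenocyte *Wif1* at 16.9 CPM (7 dpi). With 1 more marker, Schwann *Sfrp5* was at 763 CPM (7 dpi), adventitial *Sfrp2* at 603, 182, 334 and 1026 CPM, interstitial *Sfrp2* at 4.76, 71.4 and 33.3 CPM (before 7 dpi), tenocyte *Wif1* at 25.5 CPM (7 dpi) and perineurial *Sfrp5* at 3858 CPM. With the study's gate the summed members were at 1302, 551 and 869 CPM (before 7 dpi) and 1 member was higher at 3 against 1 dpi. Without cartilage the sum at 7 dpi was 1184 CPM. Thinned, it was 898 CPM (Uninjured) and 1029.7 CPM (7 dpi), with 1 member lower at 1 dpi and 0 lower at 3 against 1 dpi.

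With no count filter, 5 members were lower at 1 dpi and 5 higher at 3 against 1 dpi, and pathway genes numbered 6 higher and 12 lower at 1 dpi, 19 higher and 4 lower at 3 against 1 dpi, 7 lower at 7 against 3 dpi and 8 lower at 7 dpi against Uninjured. With a 1.5-fold limit, 1 member was higher at 1 dpi, 2 lower at 3 against 1 dpi and 2 lower at 7 against 3 dpi, and pathway genes numbered 3 higher and 12 lower, 13 higher and 7 lower, 5 lower and 8 lower in the same order. The shares of all genes called under these looser rules are not given here. The counts therefore cannot be read as a trait of the members or of the pathway lists. Of the alternatives chosen after seeing the data, leaving *Lrrc15* *Tnn* cells out set tenocyte *Wif1* at 29.3 CPM (7 dpi), and thinning the gated cells set *Sfrp2* at 586, 211, 390 and 880 CPM in adventitial cells and 37.7, 53.9 and 232 CPM in interstitial cells after injury.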

Other observations

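*Sfrp2* and *Sfrp4* shared cells most closely in the early libraries. Among mesenchymal cells thinned to 1000 UMIs, 43.4% of cells with a *Sfrp4* UMI (40.2 to 46.6) and 12.1% of cells without one held *Sfrp2* in Uninjured muscle. The shares were 27.4% and 5.57% at 1 dpi, 31.7% and 12.3% at 3 dpi, and 42.2% and 29.6% at 7 dpi. *Dkk3* and *Sfrp2* at 7 dpi showed a smaller gap, with *Sfrp2* in 33.6% of cells with *Dkk3* and 30.2% of cells without it.

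The transcripts were also unevenly spread over cells. The top 10% of mesenchymal cells held 82.0%, 93.7%, 77.8% and 67.7% of the *Sfrp2* UMIs (Uninjured, 1, 3 and 7 dpi), so this share was highest at 1 dpi. For *Sfrp4* the shares were 80.2%, 90.1%, 83.8% and 83.3%, and for *Sfrp1* they were 67.7%, 62.0%, 71.5% and 62.7%. These shares are not corrected for the unequal depth of the libraries. They also depend on how many cells held a UMI at all, which for *Sfrp2* was 33.2%, 16.5%, 32.9% and 55.1%. Fewer such cells raise the share of the top 10%, so the high *Sfrp2* share at 1 dpi is not separate from its low level.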
